A study of Mus musculus with 3 samples.

Results

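Transcript clusters whose signal differed at least 2-fold between AT2 cells of continuous CS-exposed and air-exposed mice were described here. AT2 (alveolar type 2) cells are the surfactant-producing epithelial cells of the alveolus and CS is mainstream cigarette smoke. A transcript cluster is the set of probes that a Clariom S array assigns to 1 gene or transcript. A cluster was included when the log2 signal of the continuous CS array minus that of the air array was at least 1 in either direction and the brighter of both values exceeded the receptor level of its array. The receptor level is the 95th percentile of the 1414 clusters named for olfactory or vomeronasal receptors (symbols starting Olfr or Vmn), genes of sensory neurons that give a measure of background signal. By this rule 339 of 22206 clusters were apart (1.53%), of which 240 (1.08%) were higher and 99 (0.446%) were lower with continuous CS.

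All samples came from female Sftpc/GFP mice (CBA/Ca × C57BL6J background, 9 to 11 weeks old at exposure), in which GFP marks cells that express surfactant protein C. The sort kept cells high for both EpCAM and GFP. In this line a few cells where bronchioles meet alveolar ducts and in terminal bronchioles carry the reporter at a low level. The CS-exposed mice inhaled mainstream CS through the nose for 60 min per day on 5 days per week over 3 smoke weeks, either continuous or intermittent, and lung cells were taken 24 h after the last session, whereas control mice of the same age breathed air. Cells of 3 mice per exposure were pooled and hybridized to 1 array, so no spread between mice could be measured and no test was made. The intermittent CS array is shown beside the other arrays, and its difference from air shares the air array with the continuous CS difference. No source used here states the hour of sacrifice.

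AT2 cells make and recycle pulmonary surfactant, secrete proteins of innate defence, metabolize inhaled compounds and act as progenitors of AT1 cells, the flat cells that line most of the alveolar surface. Like most cells, they hold a circadian clock in which the activators Arntl (BMAL1), Clock and Npas2 drive the Per, Cry and Nr1d repressors through E-box elements, and the repressors in turn switch the activators off. The repressor arm therefore peaks when the mRNA of Arntl and Npas2 is low, and outputs such as Dbp act through D-box elements.

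The arrays were closely matched in level. Their medians were 5.68, 5.70 and 5.66 on the log2 scale for air, continuous CS and intermittent CS, their receptor levels were 5.19, 5.15 and 5.14, and between 55.8% and 56.3% of clusters lay above the receptor level. Values were identical on the air and continuous CS arrays for 5396 clusters (24.3%), and the SD of the difference was 0.25 over receptor clusters and 0.33 over all clusters. Of the receptor clusters, 99% differed less than 1.85-fold, and 3 of 1414 (0.212%) met the rule. Markers of the labelled cell type were bright: Sftpc, Sftpb and Sftpa1, surfactant protein genes, read 19.93 on every array, the highest value in the table and shared by 9 clusters, so that a difference above it could not be seen. Lamp3, a lamellar body protein, read 19.85 on every array. Markers of other cell types were bright too. Scgb1a1, the club cell secretoglobin, read 19.61 on every array, and Ager of AT1 cells read 18.08 in air, so brightness does not measure the purity of the sort. Epcam, the other gene of the sort, read 11.65, 11.46 and 11.87 in the order air, continuous CS and intermittent CS, an order kept for all values below.

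Most differences were close to the threshold. The clusters higher with continuous CS differed from air by 1.00 to 8.35 log2 (median 1.24), and those lower by -5.67 to -1.0 (median -1.24), beside a median of 0.00 over all 22206 clusters. At least 2 log2 separated 25 of the higher and 15 of the lower clusters, while 177 and 69 lay between 1 and 1.5. For the same clusters, intermittent CS minus air had a median of 0.86 (range -1.39 to 8.26) among the higher and -1.15 (range -5.60 to 0.37) among the lower. The dimmer value lay at or below the receptor level for 30 higher and 14 lower clusters, and for these a fold is given as a lower bound, the brighter value over the receptor level of the dimmer array. Among the 12713 clusters above the receptor level on either array, the shares were 1.89% higher and 0.779% lower.

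**Figure D1:**
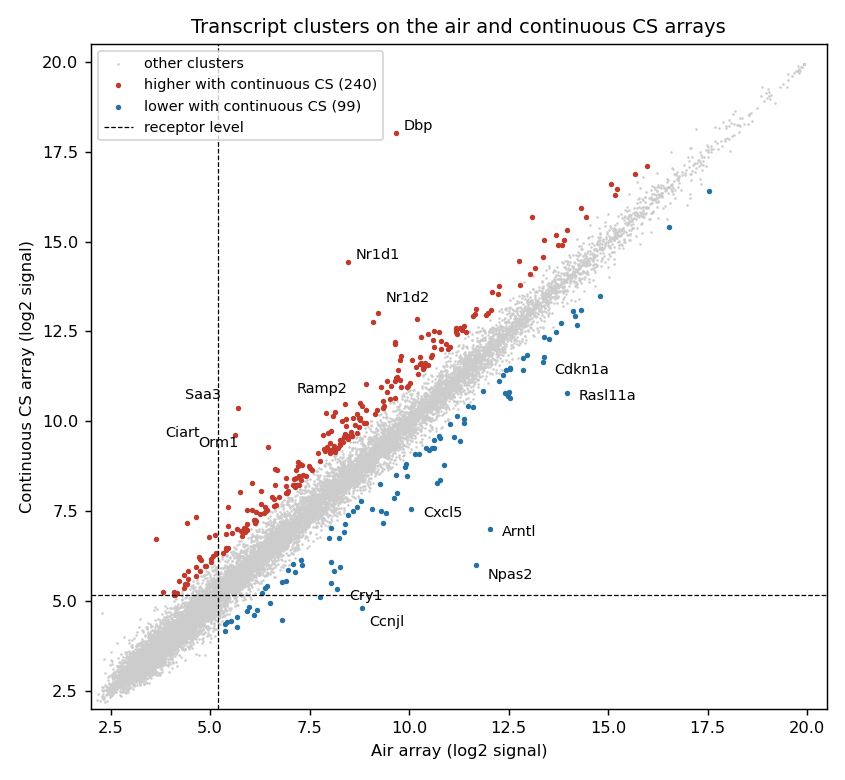
Log2 signal of every transcript cluster on the air array (x axis) and on the continuous CS array (y axis), 1 pooled array each. Red points are the 240 clusters higher and blue points the 99 clusters lower with continuous CS, grey points are all others and dashed lines mark the receptor levels; Dbp (9.67 and 18.02) lies farthest above the diagonal and Npas2 (11.67 and 6.0) farthest below.

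At the edge of the rule, Cyyr1, Rsph4a, Sh3pxd2a and Proca1 lay just inside, each 1.00 log2 higher with continuous CS. Just outside were Tppp3 and Fam102b, lower, and the interferon-induced genes Ifit3 and Cxcl10, higher, whose differences reach 1.00 only after rounding. Of the 339 clusters, 318 carried a gene symbol (228 distinct symbols among the higher and 90 among the lower). In 44 lists of genes by function or cell type, 118 of them found a place, 93 higher and 25 lower.

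**Figure D2:**
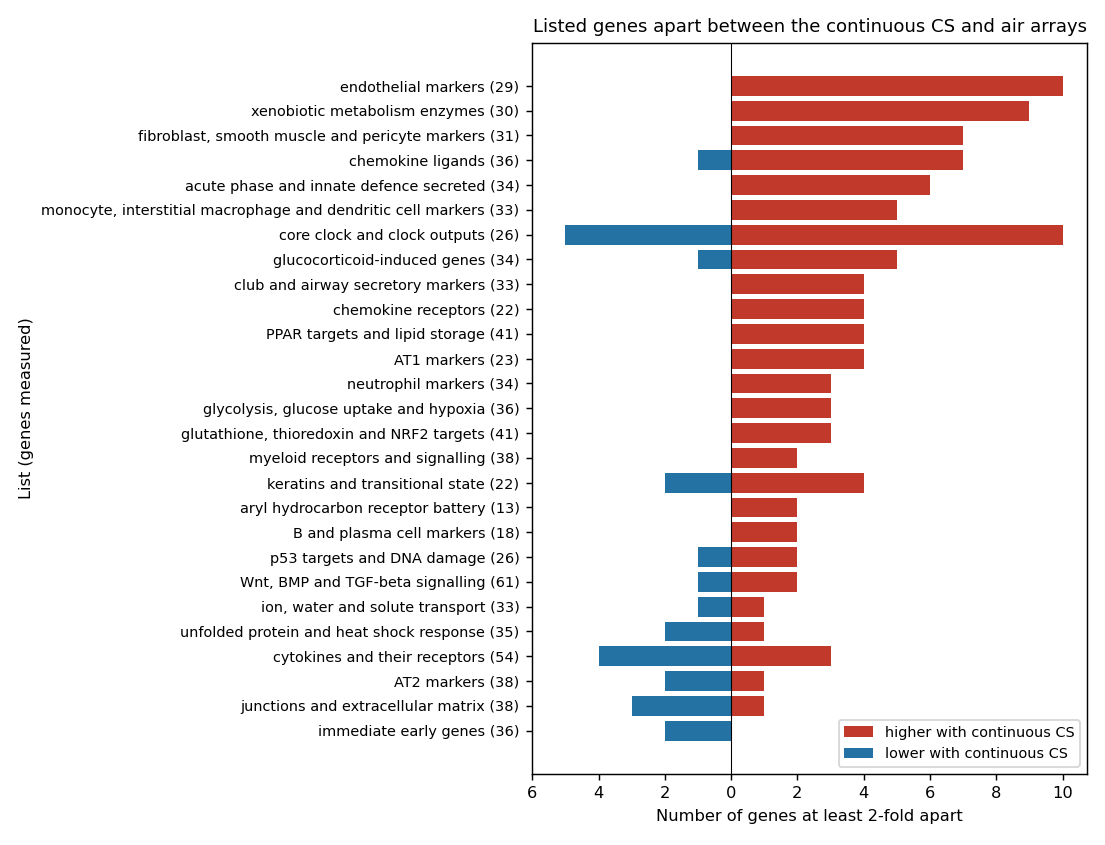
Number of listed genes at least 2-fold apart between the continuous CS and air arrays, for lists with at least 2 such genes; the x axis counts genes higher (red, right) and lower (blue, left) with continuous CS, and the number of measured genes of each list stands in parentheses. Clock genes (10 higher, 5 lower of 26) and endothelial markers (10 higher, 0 lower of 29) hold the most.

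Clock genes gave the largest differences in both directions. Of 28 listed clock genes and clock outputs, 26 were measured, 24 lay above the receptor level, 10 were higher and 5 were lower with continuous CS. The sequences around the starts of 5 of them are shown, because E-box and D-box elements are sites through which the clock acts and both directions are represented. All 5 were picked as carriers of a motif, so they do not stand for the other clock genes. Where a gene had 2 windows (Per1 and Arntl), the window with the most matches is shown. Each sequence runs 5′ to 3′ on the gene's strand from 250 bases before to 50 bases after the RefSeq start (GRCm38.p6), with matched motifs in capitals. They lie at chr11:69098699-69098998 (plus strand, Per1), chr3:95882179-95882478 (minus strand, Ciart), chr4:151044616-151044915 (minus strand, Per3), chr10:85185005-85185304 (minus strand, Cry1) and chr7:113207261-113207560 (plus strand, Arntl). The capitals mark the E-box CACGTG in Per1, Ciart and Cry1, the D-box TTATGNAA in Per1 and Per3, and TAGGTCA, an element bound by Nr1d and Ror receptors, in Arntl.
Per1: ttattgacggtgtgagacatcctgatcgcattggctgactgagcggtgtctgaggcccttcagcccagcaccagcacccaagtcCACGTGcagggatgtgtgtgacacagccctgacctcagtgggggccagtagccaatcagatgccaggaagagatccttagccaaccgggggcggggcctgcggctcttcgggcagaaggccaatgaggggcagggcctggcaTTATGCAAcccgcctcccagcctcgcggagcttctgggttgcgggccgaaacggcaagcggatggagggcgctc
Ciart: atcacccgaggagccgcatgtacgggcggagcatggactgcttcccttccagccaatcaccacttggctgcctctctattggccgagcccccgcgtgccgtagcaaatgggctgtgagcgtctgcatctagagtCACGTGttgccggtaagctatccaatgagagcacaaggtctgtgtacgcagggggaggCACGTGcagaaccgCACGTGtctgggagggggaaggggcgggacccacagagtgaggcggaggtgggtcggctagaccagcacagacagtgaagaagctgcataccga
Per3: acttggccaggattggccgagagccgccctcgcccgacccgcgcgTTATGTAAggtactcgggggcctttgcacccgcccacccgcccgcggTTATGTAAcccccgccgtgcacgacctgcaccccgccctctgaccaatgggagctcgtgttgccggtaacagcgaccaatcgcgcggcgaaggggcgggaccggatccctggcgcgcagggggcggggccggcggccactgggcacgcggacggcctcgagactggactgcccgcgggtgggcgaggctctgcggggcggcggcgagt
Cry1: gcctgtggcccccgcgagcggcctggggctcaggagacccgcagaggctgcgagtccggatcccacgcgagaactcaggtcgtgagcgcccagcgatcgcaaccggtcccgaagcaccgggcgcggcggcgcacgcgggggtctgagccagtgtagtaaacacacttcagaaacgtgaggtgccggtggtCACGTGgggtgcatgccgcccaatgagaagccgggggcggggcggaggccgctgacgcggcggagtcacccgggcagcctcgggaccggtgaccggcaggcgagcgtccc
Arntl: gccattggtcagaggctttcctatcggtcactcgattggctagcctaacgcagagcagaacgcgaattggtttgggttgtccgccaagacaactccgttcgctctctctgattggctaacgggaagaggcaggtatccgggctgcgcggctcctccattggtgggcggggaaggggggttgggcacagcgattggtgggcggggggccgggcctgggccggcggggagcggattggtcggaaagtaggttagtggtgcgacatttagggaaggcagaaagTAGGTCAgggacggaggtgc

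Ciart carried 3 E-boxes, 116, 58 and 44 bases before its start, Per1 carried 1 E-box 166 bases and 1 D-box 24 bases before its start, and Per3 carried 2 D-boxes, 205 and 158 bases before. Cry1, which was lower with continuous CS, held an E-box 60 bases before its start, so this element was found in genes of both directions. Searched on both strands, CACGTG was in 7 of 33 windows of the clock genes (21.2%, 6 genes) beside 8.11% of the windows of all genes on the array. It was in 11.7% of windows of genes higher and 16.9% of windows of genes lower with continuous CS. TTATGNAA was in 2 of 33 windows of the clock genes (6.06%), those of Per1 and Per3 shown here. It was in 5.65% of windows of genes higher and 3.37% of windows of genes lower, beside 3.09% on the array. Among other elements, TNGCGTG, the core of the aryl hydrocarbon receptor element, was in 5.22% and 12.4% beside 6.17%, the palindrome of the glucocorticoid receptor (GNACA and TGTNC spaced by 3 free bases) in 0.435% and 0% beside 0.454%, and TAGGTCA, which was added after the values were seen, in 0.87% and 4.49% beside 2.26%. A match describes letters in the window only. No one motif contains another, though their matches may overlap.

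Dbp, an activator at D-boxes and a direct output of the clock, read 9.67, 18.02 and 17.93, 325-fold higher with continuous CS than in air. Nr1d1 (REV-ERB alpha), which represses Arntl and Npas2, read 8.47, 14.43 and 14.28, 62.2-fold higher, and its paralog Nr1d2 read 9.21, 13.02 and 13.07, 14.0-fold higher. By the rule all 3 genes were lower in air than with continuous CS, and their intermittent CS values lay close to those of continuous CS.

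Among repressors of Arntl and Clock, Ciart read 5.62, 9.61 and 8.96, 15.8-fold higher with continuous CS. Per3 read 9.08, 12.78 and 12.73 (12.9-fold), Per1 read 9.64, 12.15 and 12.01 (5.72-fold), and Per2 read 8.92, 11.02 and 11.37 (4.31-fold). Bhlhe41 (DEC2), which represses at E-boxes, read 5.76, 8.04 and 7.60, 4.86-fold higher. Wee1, the kinase that holds cells before mitosis and a known clock output, read 10.81, 12.25 and 11.84, 2.70-fold higher. Usp2, a deubiquitinase with rhythmic mRNA in many tissues, lay below the receptor level in air and close to it with continuous CS (4.09, 5.17 and 4.99), and no fold is given.

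The activators were on the other side. Npas2, the paralog of Clock, read 11.67 in air, 6.0 with continuous and 6.07 with intermittent CS, 51.0-fold lower with continuous CS. Arntl, their shared partner, read 12.03, 7.01 and 6.56, 32.3-fold lower. Clock itself read 14.79, 13.48 and 14.08, 2.47-fold lower. Cry1, a repressor whose mRNA peaks later than that of the Per genes, read 8.19, 5.32 and 5.32, 7.27-fold lower, and Nfil3 (E4BP4), which competes with Dbp at D-boxes, read 9.33, 7.18 and 6.76, 4.46-fold lower. By the rule each of these 5 genes was lower with continuous CS than in air, and its intermittent CS value was below air too.

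The other 11 measured clock genes stayed within 2-fold, and Hlf and Rorb of these were at or below the receptor level. Of the rest, Cry2, a repressor, lay farthest above air at 12.30, 13.13 and 12.89, and Csnk1e, a kinase of the Per proteins, lay farthest below at 12.18, 11.34 and 11.60. Per2, Wee1, Usp2, Clock, Cry2 and Csnk1e were named after their values were seen. The median over the 24 clock genes above the receptor level was 0.57 with continuous CS and 0.53 with intermittent CS, beside 0.00 for all clusters above it. Exposure and the hour of sacrifice cannot be told apart in 1 array per group.

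**Figure D3:**
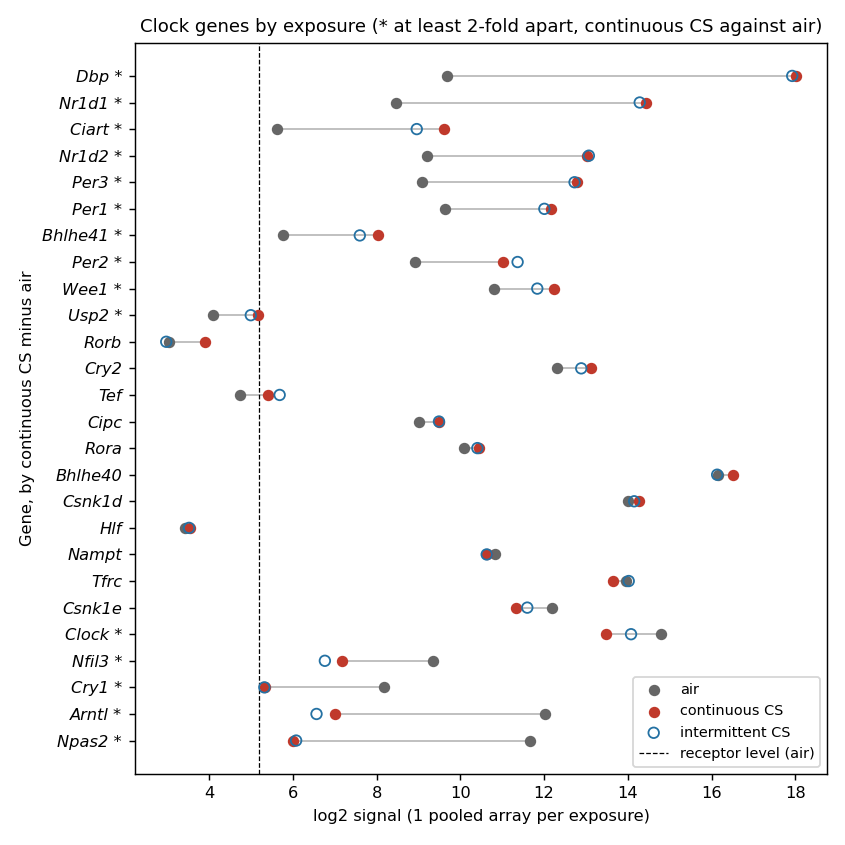
Log2 signal (x axis) of the 26 measured clock genes on the air (grey), continuous CS (red) and intermittent CS (open blue) arrays, 1 pooled array each, ordered by continuous CS minus air; asterisks mark genes at least 2-fold apart and the dashed line is the receptor level of the air array. Dbp at the top differs by 8.35 and Npas2 at the bottom by -5.67, and for both genes the values of the CS arrays lie close to each other.

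Acute phase and innate defence proteins were higher in 6 and lower in 0 of 34 measured genes, 24 of them above the receptor level, with a median over these of 0.11 and of 0.00 over all 34. Saa3, the serum amyloid A of lung and other tissues outside the liver, read 5.71 in air, 10.36 with continuous and 11.11 with intermittent CS, 25.2-fold higher with continuous CS. Orm1, an acid glycoprotein that binds drugs and dampens inflammation, read 6.46, 9.29 and 9.52, 7.10-fold higher. Its neighbour Orm2 read 4.42, 7.17 and 7.51, at least 3.94-fold higher, and signal of these closely similar genes may be shared between their probes. For these 3 genes the intermittent CS value was the highest of the arrays.

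The other 3 genes were highest with continuous CS. Cfb, complement factor B, which drives the alternative pathway, read 9.76, 11.71 and 10.24, 3.87-fold higher with continuous CS. Serpina3n, an inhibitor of serine proteases, read 5.46, 7.09 and 6.74 (3.10-fold), and Pglyrp1, which binds bacterial peptidoglycan, read 8.77, 10.04 and 9.33 (2.41-fold). Lcn2, a siderophore-binding protein, was at the highest value of the table on every array and could show no difference.

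Members outside the list that carry copper in plasma or act in complement and coagulation, named after their values were seen, were on both sides. Cp, the copper-carrying ceruloplasmin, read 10.29, 12.36 and 11.92, 4.18-fold higher with continuous CS. The classical complement proteases C1ra (8.73, 10.10 and 9.94) and C1s1 (6.73, 7.89 and 7.35) were 2.57-fold and 2.25-fold higher. Of the coagulation genes, F3, the membrane protein tissue factor, read 5.92, 7.52 and 7.33 (3.04-fold), and F7, the factor it activates, read 7.10, 8.39 and 7.99 (2.45-fold). Serpind1, an inhibitor of thrombin, read 9.94, 10.95 and 10.57 (2.01-fold). On the lower side, Serpina10, an inhibitor of coagulation factor X, read 9.27, 8.26 and 6.70 (2.01-fold lower), and Hc, complement component C5, read 17.54, 16.41 and 16.66 (2.19-fold lower).

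Enzymes that metabolize foreign compounds were higher with continuous CS in 9 of 30 measured genes and lower in 0. The median over the 18 genes above the receptor level was 0.98 with continuous CS and 0.42 with intermittent CS (0.16 with continuous CS over all 30), and over all clusters named as cytochromes P450 5 of 99 (5.05%) were higher and 0 lower. Adh1, an alcohol dehydrogenase, read 6.27 in air, 8.07 with continuous and 7.38 with intermittent CS, 3.48-fold higher with continuous CS. Fmo1, a flavin monooxygenase, read 12.76, 14.47 and 13.17 (3.29-fold). Cyp2b10, which oxidizes drugs and is a target of the receptor CAR in liver, read 13.69, 15.19 and 15.33 (2.82-fold).

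Cyp2f2, the club cell enzyme that activates naphthalene, read 15.99, 17.09 and 16.62, 2.15-fold higher with continuous CS, and Cyp4b1, which acts on fatty acids and protoxins and was named after its values were seen, read 11.93, 12.95 and 11.59 (2.02-fold). Cyp2s1, an enzyme of epithelia, read 8.02, 9.20 and 8.45 (2.26-fold). Cyp1b1, a classical target of the aryl hydrocarbon receptor, read 4.45, 5.61 and 5.30, at least 1.34-fold higher. Values of the intermittent CS array lay between those of the other arrays for Cyp2f2, Cyp2s1 and Cyp1b1, and below both for Cyp4b1.

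The conjugating and hydrolysing enzymes included Sult1a1, a sulfotransferase, at 9.54, 10.97 and 11.38 (2.69-fold higher with continuous CS), and Ephx1, microsomal epoxide hydrolase, at 12.78, 13.80 and 13.79 (2.03-fold). Gsta3, a glutathione transferase, read 9.29, 10.95 and 10.56 (3.15-fold), and Gsto1, another, read 4.16, 5.23 and 4.76, at least 1.03-fold higher. Fmo4, another flavin monooxygenase and in no list, read 4.65, 7.33 and 7.13, at least 4.40-fold higher. Named after their values were seen, Gstz1 (11.42, 12.50 and 12.36), which acts in tyrosine breakdown, and the aldehyde dehydrogenase Aldh3b1 (8.68, 9.69 and 9.59) were 2.11-fold and 2.01-fold higher.

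Other genes that respond to smoke compounds were not 2-fold apart. Cyp1a1, the most inducible target of the aryl hydrocarbon receptor, lay below the receptor level on every array (3.16, 3.18 and 3.16), Ahrr, the repressor of that receptor, read 5.74 on all 3, and Tiparp, another target, read 10.21, 10.23 and 10.23. Of 13 measured genes of that battery 2 were higher, Cyp1b1 and Cyp2s1. Nqo1, a quinone reductase induced through NRF2, read 5.20, 5.29 and 5.20, and Gclc, the catalytic subunit for glutathione synthesis, read 16.49, 15.63 and 15.95, 1.81-fold lower with continuous CS. In the list of glutathione, thioredoxin and NRF2 genes 3 of 41 measured were higher and 0 lower, with a median of 0.09.

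**Figure D4:**
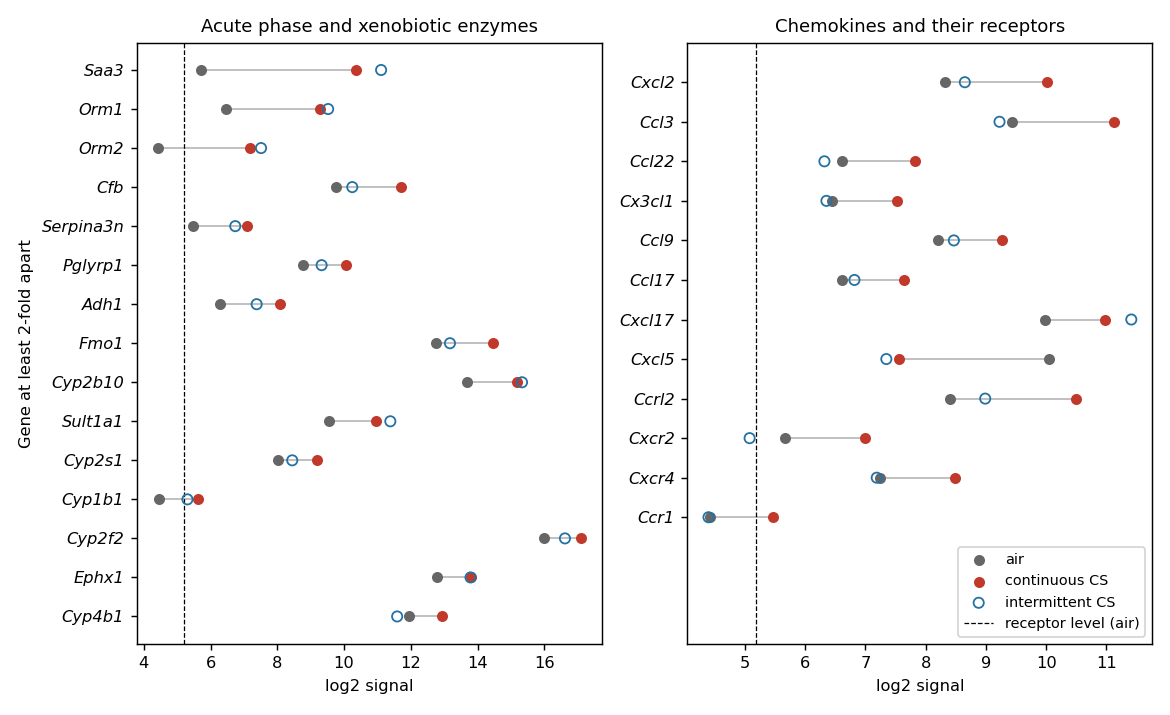
Log2 signal (x axes) of the listed acute phase and xenobiotic genes (left) and chemokine genes (right) that were at least 2-fold apart between continuous CS and air, on the air (grey), continuous CS (red) and intermittent CS (open blue) arrays; the dashed line is the receptor level of the air array. Saa3 reads 5.71 in air and 10.36 with continuous CS, and Cxcl5 (10.05 to 7.55) is the only gene shown that was lower with continuous CS.

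Of genes known to be induced by glucocorticoids, 5 of 34 measured were higher and 1 was lower with continuous CS, and the median over the 29 above the receptor level was 0.09. Zbtb16 (PLZF), a zinc finger repressor, read 8.14 in air, 10.27 with continuous and 10.40 with intermittent CS, 4.38-fold higher with continuous CS. Mt2, a metal-binding metallothionein, read 9.66, 11.21 and 10.82 (2.92-fold), and Cebpd, a transcription factor of the acute phase, read 11.03, 12.08 and 12.26 (2.07-fold). The other 2 were Per1 and Sult1a1, described above. Fkbp5, a chaperone of the glucocorticoid receptor and a standard target, read 7.37, 7.85 and 7.78, and Tsc22d3 (GILZ), another, read 11.57, 12.25 and 12.48, both less than 2-fold from air. Klf15, a further target outside the list and named after its values were seen, read 7.09, 8.24 and 8.47 (2.22-fold higher).

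Cdkn1a (p21), the cell cycle inhibitor induced by p53 and by glucocorticoids, read 13.36, 11.66 and 11.44, 3.26-fold lower with continuous CS. The p53 list held 2 genes higher, Dcxr, a carbonyl reductase (13.96, 15.33 and 15.52, 2.58-fold), and Ephx1, and 1 lower, Cdkn1a, of 26 measured. Sfn (14-3-3 sigma), another epithelial p53 target, was listed with the transitional state genes and read 7.32, 6.0 and 5.62 (2.49-fold lower). Immediate early genes, which respond within minutes to stress and cell dissociation, were higher in 0 and lower in 2 of 36 measured. Their median was -0.01 over all 36 and -0.03 over the 35 above the receptor level. Atf3, a stress-induced repressor, read 14.18, 12.93 and 12.13 (2.38-fold lower), and the other was Nfil3, while Fos, an AP-1 subunit, read 16.68, 16.20 and 15.75.

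Endothelial genes stood higher with continuous CS and near the air value with intermittent CS. Of 29 measured markers 10 were higher and 0 lower with continuous CS, and of the 26 above the receptor level 25 lay above 0 and 0 below it. The median difference over these 26 was 0.87 for continuous CS, beside -0.01 for intermittent CS, and 0.78 for continuous CS over all 29. The summed linear signal of the list was 44230 in air, 69699 with continuous and 48527 with intermittent CS, 1.58 and 1.10 times air. Ackr1, Prox1 and Sox17 were at or below the receptor level. In bulk RNA of a sorted pool, more cells of a type and more RNA per cell cannot be told apart, and the part of endothelial RNA in any other result was not tested.

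Ramp2, the partner of the adrenomedullin receptor, read 7.92 in air, 10.24 with continuous and 8.86 with intermittent CS, 4.99-fold higher with continuous CS, and Calcrl, that receptor, named after its values were seen, read 12.06, 13.10 and 11.70 (2.05-fold). Ednrb, an endothelin receptor, read 8.03, 9.74 and 8.30 (3.27-fold). Lyve1, a hyaluronan receptor best known from lymphatic vessels, read 8.76, 10.50 and 9.53 (3.36-fold). The endothelial transcription factor Erg read 7.26, 8.80 and 7.23 (2.91-fold).

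Junction and surface proteins of vessels followed. Cdh5 (VE-cadherin) read 11.28, 12.60 and 11.34 (2.50-fold higher with continuous CS), Eng (endoglin) read 11.34, 12.53 and 11.21 (2.28-fold), and Pecam1 (CD31) read 8.93, 9.96 and 8.99 (2.05-fold). Plvap, of the diaphragms of fenestrae and caveolae, and Ptprb, a phosphatase that acts on VE-cadherin and Tie receptors, were 2.17-fold and 2.12-fold higher. Endothelial genes outside the list, named after their values were seen, included Ecscr at 6.63, 8.68 and 7.76 (4.16-fold), the lectin Clec1a at 7.83, 9.62 and 8.34 (3.45-fold), Ace, which makes angiotensin II, at 10.61, 12.26 and 10.93 (3.13-fold), Cd34 at 7.93, 9.28 and 8.03 (2.55-fold) and the Notch ligand Dll4 at 8.01, 9.41 and 8.45 (2.64-fold). Ecscr was the one of these 5 whose intermittent CS value lay nearer to continuous CS than to air.

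Stromal markers were likewise on the higher side. Of 31 measured fibroblast, smooth muscle and pericyte markers 7 were higher and 0 lower, and the median over the 20 above the receptor level was 0.72 with continuous CS and 0.31 with intermittent CS (0.21 with continuous CS over all 31). Their summed signal was 1.23 times air with continuous CS and 1.17 times with intermittent CS. Dcn (decorin), a matrix proteoglycan, read 6.69, 8.65 and 7.62 (3.87-fold higher with continuous CS), and Inmt, a methyltransferase abundant in lung fibroblasts, read 8.43, 10.06 and 9.01 (3.09-fold). Mfap4 and Bgn, matrix proteins, and Gsn, an actin-severing protein, were 2.50-fold, 2.35-fold and 2.55-fold higher. Acta2, smooth muscle actin, read 6.90, 8.0 and 6.82 (2.15-fold), and Fn1, fibronectin, read 7.14, 8.23 and 7.14 (2.13-fold), whereas Col1a1, fibrillar collagen, read 6.40 on all 3 arrays. The part of stromal RNA in other results was not tested.

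Genes of vessels and lung mesenchyme outside the lists, named after their values were seen, were further members on the higher side. Sparcl1, a matrix glycoprotein, read 7.96 in air, 9.66 with continuous and 8.78 with intermittent CS (3.27-fold), and Col18a1, a basement membrane collagen, read 5.12, 6.83 and 6.19 (at least 3.13-fold). Transcription factors of lung mesenchyme and endothelium were among them, with Foxf1 at 6.91, 8.20 and 6.91 (2.45-fold), Tbx2 at 7.15, 8.43 and 7.49 (2.42-fold) and Tbx3 at 5.41, 6.48 and 5.60 (2.10-fold). Hey1, a target of Notch, read 7.51, 8.70 and 7.34 (2.27-fold), F2r, the thrombin receptor, read 9.36, 10.43 and 9.86 (2.09-fold), and Cavin2, of caveolae, read 8.38, 9.65 and 8.77 (2.41-fold). In all of these 8 genes but Col18a1, the intermittent CS value lay nearer to air than to continuous CS.

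**Figure D5:**
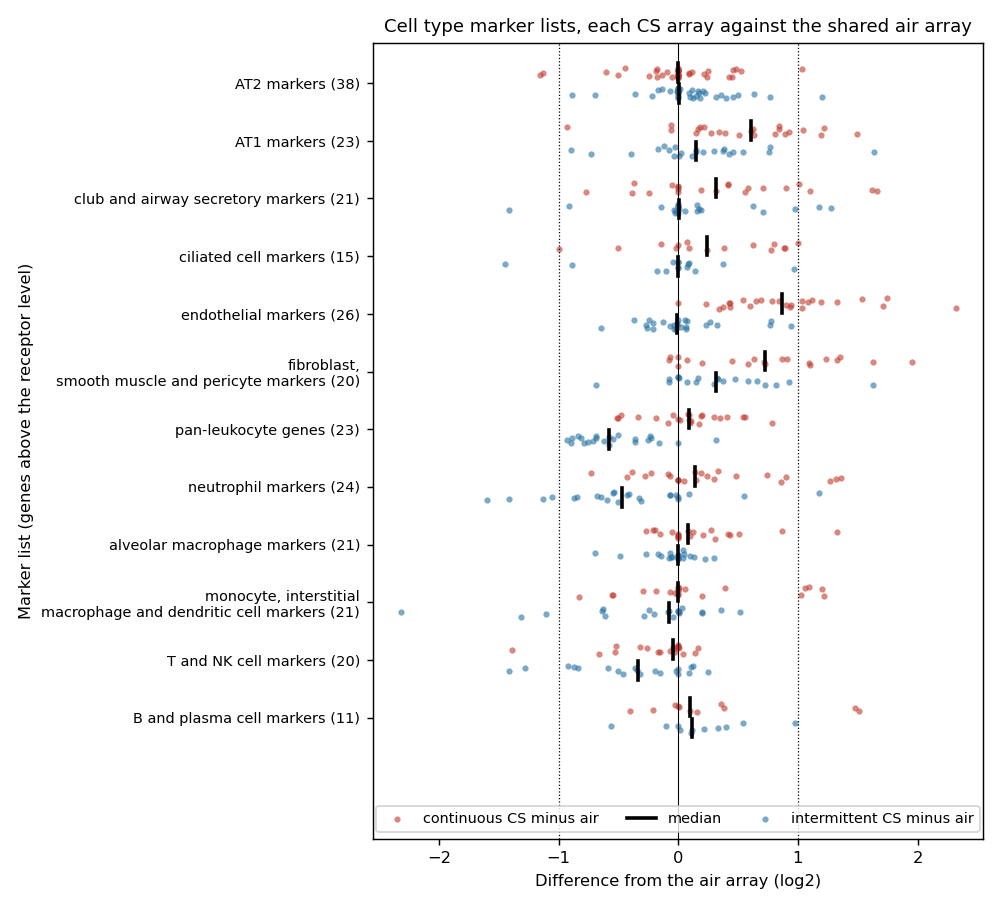
Difference from the air array (x axis, log2) of the cell type markers above the receptor level, with the number of genes in parentheses; red points are continuous CS minus air, blue points intermittent CS minus air, black bars medians and dotted lines a 2-fold difference. Both differences share the air array, and the endothelial medians are 0.87 and -0.01 while the AT2 medians are 0.00 and 0.01.

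Among 38 measured AT2 markers, a list that includes Ager of AT1 cells, 1 was higher and 2 were lower with continuous CS, and the median was 0.00. Bex2 read 9.34, 10.37 and 10.54 (2.04-fold higher), Ppp1r14c, a phosphatase inhibitor subunit, read 10.74, 9.58 and 10.04 (2.23-fold lower), and Hc is given above. Of these markers 7 were at the highest value of the table and could not differ. AT1 markers were higher in 4 and lower in 0 of 23, with 20 differences above 0 and a median of 0.61 with continuous CS and 0.15 with intermittent CS. Pdpn (podoplanin) read 9.36, 10.57 and 9.78 (2.33-fold higher), Sema3e, a guidance cue, and Igfbp2, which binds insulin-like growth factors, were 2.28-fold and 2.06-fold higher, and Cyp2b10 is given above. Ager, the RAGE receptor and the most used AT1 marker, read 18.08, 18.30 and 18.23.

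Airway secretory markers were higher in 4 and lower in 0 of 33 measured, with a median of 0.32 over the 21 above the receptor level and 0.07 over all 33. Scgb3a2, a secretoglobin of club cells, read 8.81, 10.43 and 9.52 (3.07-fold higher with continuous CS), Gabrp, a GABA receptor subunit, read 7.23, 8.24 and 7.20 (2.02-fold), and Cyp2f2 and Gsta3 were the others. Of 27 measured ciliated cell markers Rsph4a, a radial spoke protein, was higher (6.67, 7.67 and 6.57, 2.00-fold), and Tppp3 lay just outside the rule on the lower side (10.84, 9.84 and 9.39). With each array centred on its median or with quantile normalization, the ciliated list held 0 genes higher and 1 lower, and 12 of its genes were at or below the receptor level.

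Pan-leukocyte genes were higher in 0 and lower in 0 of 26 measured, and their median above the receptor level was 0.09 with continuous CS and -0.58 with intermittent CS. Their summed signal was 54209 in air, 63423 with continuous and 50761 with intermittent CS. Ptprc (CD45), the common leukocyte antigen, read 10.92, 10.41 and 10.20. Beside these values, single genes of granulocytes and other myeloid cells were higher with continuous CS, and the part of leukocyte RNA in them was not tested.

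Csf3r, the G-CSF receptor, read 7.87 in air, 9.23 with continuous and 7.0 with intermittent CS (2.57-fold higher with continuous CS), and Cxcr2, the receptor that guides neutrophils, read 5.67, 6.99 and 5.08 (2.50-fold). With Pglyrp1 these were 3 of 34 measured neutrophil markers, of which 10 were at or below the receptor level. The median over the 24 above it was 0.14 with continuous CS and -0.47 with intermittent CS. Of these 24 genes, 14 differences of continuous CS from air were above 0 and 7 below. S100a8, the abundant neutrophil calprotectin subunit, read 7.64, 7.79 and 6.04. Itgam (CD11b) read 5.94, 7.14 and 5.86 (2.29-fold), and C1qb, of macrophage C1q, read 4.90, 5.96 and 5.42 (at least 1.71-fold). With Fn1, Ccl17 and Ccl22 they made 5 of 33 monocyte, interstitial macrophage and dendritic cell markers. C1qa and C1qc, the other C1q genes, were among 12 genes of this list at or below the receptor level. The median of this list was 0.00, with 9 differences above 0 and 7 below among the 21 genes above the receptor level, and 1 of the 5 was 2-fold higher with 32 added to each linear value before the log.

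Lilrb4a, an inhibitory receptor of myeloid cells, read 10.48, 11.57 and 9.08 (2.14-fold higher with continuous CS), its relative Lilr4b, named after its values were seen, read 6.10, 7.27 and 5.36 (2.24-fold), and Tlr13, a sensor of bacterial ribosomal RNA, read 5.14, 6.31 and 4.09 (at least 2.18-fold). In all 3 the intermittent CS array was the lowest. Whether the probes of Lilrb4a and Lilr4b share signal was not tested. Marco, a scavenger receptor of alveolar macrophages, lay below the receptor level on every array (4.47, 4.63 and 4.71), and of 25 alveolar macrophage markers Gpnmb was higher (6.56, 7.89 and 6.86, 2.51-fold).

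Of 18 measured B and plasma cell markers, 11 of them above the receptor level, 2 were higher and 0 lower, with a median of 0.00 over all 18. Fcer2a (CD23) read 10.27, 11.78 and 11.25 (2.85-fold higher) and Jchain, which joins IgA and IgM, read 7.30, 8.78 and 7.32 (2.79-fold higher), while Ms4a1 (CD20) and Pax5, which define B cells, were at or below the receptor level. Of 27 measured T and NK cell markers 0 were higher and 1 was lower, Cd8a at 5.67, 4.28 and 4.75 (at least 1.43-fold lower), and 13 of the 20 above the receptor level had a difference below 0. Of 18 mast cell, basophil and eosinophil markers 14 were at or below the receptor level, among them the mast cell proteases Cpa3, Cma1 and Tpsb2, and 9 differences were above 0 and 8 below. The 1 gene higher in this list was Kit, the stem cell factor receptor, which other cell types also carry, at 8.78, 10.08 and 8.49 (2.48-fold). Its ligand Kitl, named after its values were seen, read 8.44, 9.55 and 8.43 (2.16-fold).

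Chemokine ligands were higher in 7 and lower in 1 of 36 measured, with a median of 0.17 over the 25 above the receptor level. Cxcl2, which attracts neutrophils through Cxcr2, read 8.32 in air, 10.02 with continuous and 8.65 with intermittent CS (3.24-fold higher with continuous CS), and Ccl3 (MIP-1 alpha) read 9.44, 11.13 and 9.22 (3.23-fold). The Ccr4 ligands Ccl22 and Ccl17 read 6.61, 7.83 and 6.32 (2.33-fold) and 6.62, 7.65 and 6.82 (2.04-fold). Cx3cl1 (fractalkine) was 2.11-fold, Ccl9 2.09-fold and Cxcl17, a mucosal chemokine, 2.01-fold higher. Cxcl17 (9.97, 10.98 and 11.41) was the only one of the 7 to be highest with intermittent CS.

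Cxcl5, an epithelial ligand of Cxcr2 whose lung expression is under clock control in mice, went the other way at 10.05, 7.55 and 7.35, 5.67-fold lower with continuous CS. Of 22 measured receptors 4 were higher. Ccrl2, which binds chemerin, read 8.40, 10.49 and 8.99 (4.25-fold), Cxcr4, the Cxcl12 receptor, read 7.23, 8.48 and 7.19 (2.38-fold), and Ccr1, bound by Ccl3 and Ccl9, read 4.43, 5.46 and 4.39 (at least 1.21-fold), beside Cxcr2. With 32 added to each linear value before the log, 3 ligands and 2 receptors were 2-fold higher.

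Cytokines and their receptors were split, with 3 higher and 4 lower of 54 measured. Il1rn, the antagonist of IL-1 signalling, read 4.96, 6.78 and 4.48 (at least 3.01-fold higher with continuous CS), and Tnfaip3 (A20), which limits NF-kappaB, read 11.37, 12.64 and 12.22 (2.42-fold higher). Il1b itself read 11.24, 12.10 and 10.18, less than 2-fold from air. On the lower side, the cytokine Il6 read 8.24, 6.76 and 7.80 (2.79-fold), Socs6 and Cish, suppressors of cytokine signalling, read 8.37, 6.93 and 8.52 (2.71-fold) and 9.89, 8.72 and 8.46 (2.24-fold), and Il18r1, the IL-18 receptor, read 14.32, 13.11 and 13.18 (2.32-fold). Of interferon response genes, Ifit3b was higher (7.42, 8.47 and 7.38, 2.08-fold) of 43 measured, and of MHC and costimulatory genes Cd80 (6.15, 7.22 and 6.43, 2.09-fold) of 24.

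In lipid metabolism, Cpt1a, which admits long-chain fatty acids to mitochondria, read 8.57 in air, 9.59 with continuous and 11.26 with intermittent CS, 2.03-fold higher with continuous CS. It was the only one of 40 measured fatty acid oxidation genes to be 2-fold apart. With it, Vnn1, a pantetheinase, Klf11 and the coactivator Ppargc1a made 4 of 41 PPAR targets and lipid storage genes higher, at 13.35, 14.56 and 14.58 (2.31-fold), 6.12, 7.24 and 8.26 (2.18-fold) and 7.55, 8.65 and 8.87 (2.14-fold). With 32 added to each linear value before the log, 1 of these 4 and 0 of the fatty acid oxidation genes were 2-fold higher. Vnn3, a relative of Vnn1 outside the list and named after its values were seen, read 8.70, 10.22 and 10.94 (2.86-fold). All 5 genes named here were highest with intermittent CS.

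Acaca, the rate-limiting enzyme of fatty acid synthesis, read 13.51, 12.28 and 12.77 (2.34-fold lower with continuous CS), and Pmvk, of the mevalonate pathway, read 11.20, 10.16 and 10.29 (2.05-fold lower), each the only gene apart in its list of 31 and 27. In glucose metabolism, Aldoc, an aldolase, read 9.45, 10.80 and 10.31 (2.55-fold higher), Pfkfb3, which sets the level of a glycolytic activator, read 6.38, 7.62 and 7.14 (2.35-fold), and the oxygen sensor Egln3 read 4.37, 5.46 and 4.43 (at least 1.21-fold). Outside the lists and named after their values were seen, Alas1, which starts heme synthesis, read 13.75, 14.89 and 14.96 (2.21-fold), Arg2, an arginase, read 11.20, 12.43 and 12.19 (2.34-fold), and Hpgd, which inactivates prostaglandins, was 2.03-fold higher. Ptges, which makes prostaglandin E and was also named after its values were seen, was lower at 12.35, 11.28 and 11.41 (2.09-fold).

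Genes of nutrient sensing, also outside the lists and named after their values were seen, were on both sides. Flcn (folliculin), which controls mTORC signalling at the lysosome, read 10.61, 12.08 and 12.12 (2.76-fold higher with continuous CS), while its partner Fnip2 read 9.62, 7.86 and 8.04 (3.38-fold lower). Castor1, an arginine sensor, read 5.79, 6.96 and 6.99 (2.25-fold higher), Pik3ip1, an inhibitor of PI3K, read 8.10, 9.31 and 9.06 (2.31-fold higher), and the transcription factor Foxo3 read 8.27, 9.35 and 9.36 (2.11-fold higher). Of PI3K adaptors, Pik3ap1 read 12.47, 10.70 and 10.18 (3.43-fold lower) and Gab2 read 9.07, 7.57 and 7.83 (2.83-fold lower).

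Regulators of secretory vesicles, chosen in the same way, were divided too. Rab27b, a GTPase of regulated exocytosis, read 13.39, 11.78 and 12.17 (3.04-fold lower with continuous CS) and Sytl2, an effector of Rab27, read 9.68, 8.52 and 9.04 (2.24-fold lower). Rab3c read 7.90, 9.18 and 8.97 (2.44-fold higher), Rab3a read 8.53, 9.70 and 9.87 (2.25-fold higher), and Syt7, a calcium sensor of lysosome exocytosis, read 9.15, 10.20 and 9.66 (2.06-fold higher). The intermittent CS value was on the same side of air as the continuous CS value in each of these 5 genes.

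Transporters were found on both sides. Scnn1a, the alpha subunit of the epithelial sodium channel that clears alveolar fluid, read 15.24, 16.46 and 16.40 (2.33-fold higher with continuous CS), and Slc26a4 (pendrin), an anion exchanger, read 12.87, 11.42 and 12.04 (2.75-fold lower). Over the 361 clusters of solute carriers 8 were higher and 4 lower (3.32%). Slc13a3, a dicarboxylate carrier, read 6.04, 8.29 and 8.74 (4.75-fold higher). Named after their values were seen, the amino acid carriers Slc7a5 and Slc1a5 read 8.93, 10.32 and 10.80 (2.62-fold higher) and 13.90, 15.03 and 14.57 (2.19-fold higher), and Kcne2, a potassium channel subunit, read 12.40, 10.78 and 11.31 (3.08-fold lower).

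Some epithelial adhesion genes were lower with continuous CS, while signalling genes were on both sides. Cldn7, a tight junction claudin, read 10.25 in air, 9.09 with continuous and 9.49 with intermittent CS (2.23-fold), Cdh16, an epithelial cadherin, read 10.64, 9.47 and 9.70 (2.24-fold), and the laminin receptor subunit Itga6 read 10.49, 9.21 and 8.88 (2.43-fold). They were 3 of 38 measured junction and matrix genes, in which the matrix protease Mmp2 was the 1 higher (4.65, 5.68 and 5.0, at least 1.41-fold). The median of this list was 0.00, with 13 differences above 0 and 13 below among the 32 genes above the receptor level. Tgfb3, a TGF-beta ligand, read 11.13, 9.58 and 9.67 (2.93-fold lower), whereas Fzd4, a Wnt and Norrin receptor (5.40, 6.86 and 5.81), and Bmp6 (7.28, 8.37 and 7.55) were 2.76-fold and 2.12-fold higher, among 61 genes of these pathways. Fgfr3, an FGF receptor, read 9.53, 10.61 and 11.25 (2.11-fold higher), and Plaur, the urokinase receptor, read 7.22, 8.86 and 7.53 (3.12-fold higher).

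Of 35 measured unfolded protein and heat shock genes, all above the receptor level, 1 was higher and 2 were lower with continuous CS. Among all clusters above that level, 1.89% were higher and 0.779% lower. Herpud1, of endoplasmic reticulum protein degradation, read 15.69, 16.88 and 16.86 (2.29-fold higher). Hsph1, a heat shock protein, read 7.98, 6.76 and 7.05 (2.32-fold lower), and Atf3 is given above. In this list 25 differences were below 0 and 8 above, with a median of -0.10. Bub1, a spindle checkpoint kinase, read 6.92, 5.55 and 6.09 (2.58-fold lower) and was the only one of 42 proliferation genes apart, while Mki67, the proliferation marker, read 6.24, 6.43 and 6.46.

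Clusters outside every list with the largest differences were named by rank. On the lower side, Ccnjl, a cyclin J-like gene, read 8.81, 4.80 and 4.65, at least 12.6-fold lower with continuous CS. Rasl11a, a small GTPase tied to ribosomal RNA transcription, read 13.97, 10.78 and 11.76 (9.10-fold lower), and Klhl13, a ubiquitin ligase adaptor, read 7.76, 5.11 and 5.11 (at least 6.09-fold). Glipr2 read 10.71, 8.28 and 7.94 (5.41-fold), Tmem171 read 10.77, 8.37 and 8.59 (5.25-fold), and the vasopressin receptor Avpr1a read 6.81, 4.46 and 4.48 (at least 3.15-fold). In all 6 the intermittent CS value was closer to the continuous CS value than to air.

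Next in rank on the lower side were Fam71a (4.24-fold), the Notch regulator Dtx4 (3.92-fold), Ahcyl2 (3.72-fold) and the phosphoinositide phosphatase Inpp4b (3.54-fold). Named after their values were seen, Heatr1, Wdr3, Sdad1 and Pno1, each a factor of ribosome assembly, were 2.14-fold, 2.10-fold, 2.23-fold and 2.09-fold lower. Ribosome assembly genes were not counted as a list, so these do not stand for the others. The Pim1 kinase, named in the same way, was 2.11-fold lower at 13.82, 12.74 and 12.30. On the higher side, Tns2, a tensin of focal adhesions, read 10.19, 12.85 and 12.89 (6.31-fold), and Rgcc, a cell cycle regulator responsive to complement, read 9.65, 12.21 and 12.63 (5.91-fold). Of those named after their values were seen, Klhl38 read 5.45, 7.61 and 6.95 (4.46-fold), the tetraspanin Tspan4 read 8.09, 10.15 and 9.66 (4.15-fold), the Pim3 kinase read 7.22, 8.76 and 8.78 (2.91-fold) and Glp1r, the incretin receptor expressed in lung, read 10.08, 11.69 and 10.19 (3.06-fold).

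No gene was 2-fold apart among 33 respiratory chain and ATP synthase genes, 78 clusters of histones or 74 of ribosomal proteins. Over all clusters the share was 1.53%, at which sets of these sizes would hold few or none. The 339 clusters also held 21 without a gene symbol, 12 of them 1.02 to 3.09 higher and 9 of them -2.55 to -1.02 lower, 8 predicted genes or RIKEN clones and 3 receptor clusters (Vmn2r11 higher, Olfr77 and Olfr1167 lower).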

How the data were processed

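RNA of EpCAM high/GFP high AT2 cells pooled from 3 mice per exposure was labelled from 100 ng and hybridized by the authors to 1 GeneChip Clariom S array per exposure (air, continuous CS and intermittent CS). Log2 values were made by the authors in the Transcriptome Analysis Console and deposited as a table of 22206 transcript clusters for the 3 arrays, which were taken without further scaling. No source used here states its version, background correction, summarization or normalization. Because there was 1 array per exposure, precision between mice is unknown and no test was made. Differences were computed with pandas 2.3.3 in Python 3.11.15, and scaling alternatives with limma 3.58.1 in R 4.3.3. The call rule was tested on simulated data.

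Gene symbols came from the platform annotation: 19572 clusters had 1, 0 had several and 2634 had none. For a listed gene with several clusters, 1 cluster was used, with the mean over clusters as an alternative. Named genes were the 15 largest differences in each direction outside predicted and receptor genes, up to 8 per list, a set of anchors and those nearest the threshold, and others are marked as named after their values were seen, except genes named only for lying at or below the receptor level and receptor clusters. Of the anchors, Foxj1 had no cluster used here. The rule, the 44 lists and the anchors were chosen with earlier results of these data known. Promoter windows of RefSeq (GRCm38.p6) were matched by symbol for 177 genes higher and 66 lower. Alternatives concerned scaling, low values, threshold and list summary.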

Additional observations from a re-analysis of the deposited data

Results flagged for a closer look

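Lilrb4a, an inhibitory receptor of myeloid cells, differed in direction between the exposures: continuous CS minus air was 1.10 log2 and intermittent CS minus air was -1.39 (air 10.48, continuous CS 11.57, intermittent CS 9.08). It was the only cluster at least 2-fold higher on the continuous CS array and at least 2-fold lower on the intermittent CS array with the brighter value above the receptor level in both comparisons. Both differences share the air array, each rests on 1 array per exposure, and the difference between them was not tested.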

How the results depend on the processing

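With 1 array per exposure no replicate could be left out, and the spread between mice is unknown. No paired analysis was possible because each exposure had 1 pooled array. Centring on the median, quantile normalization and cyclic loess gave 228, 230 and 241 clusters higher and 105, 107 and 100 lower with continuous CS, beside 240 and 99 as deposited, so that 68.5%, 68.2% and 70.7% were higher beside 70.8%. The median of all clusters moved by -0.02, -0.01 and 0.00. Other definitions of low values gave 165 to 251 higher and 70 to 105 lower, the fewest with 32 added to each linear value. A threshold of 1.5-fold gave 723 higher and 474 lower, and 3-fold gave 52 and 27. Among genes named by rank, list, anchor or threshold and called at 2-fold, no direction was turned by alternatives of scaling or low values. Adding 32 keeps the order of 2 values, so it could turn none. A list median was counted as turned only if it lay at least 0.25 from 0. Medians closer to 0 could therefore not count, and none of the others was turned. With 32 added, 75 higher and 29 lower clusters were under 2-fold, among them Cyp1b1 (0.58), Gsto1 (0.48) and Ccr1 (0.51). The lists then held 1 gene higher in place of 4 for PPAR targets and 1 in place of 5 for monocyte and dendritic cell markers, and the only gene higher was lost for fatty acid oxidation (Cpt1a), ciliated cells (Rsph4a), AT2 cells (Bex2), interferon response (Ifit3b), MHC (Cd80) and junctions (Mmp2), as was the only gene lower for T and NK cells (Cd8a) and proliferation (Bub1). Under median centring and quantile normalization the ciliated list held 0 higher and 1 lower, with Rsph4a at 0.98. With values raised to the receptor level, 21 and 9 were, and the clock median was 0.31 in place of 0.57. With the mean in place of the median, the acute phase list gave 0.50 in place of 0.00 and the glucocorticoid list 0.34 in place of 0.08 over all their measured genes. The scale stops at 19.93, where differences cannot be seen.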
